A study of Mus musculus with 6 samples.

Results

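The genes described here make cholesterol, sense it, move it between membranes, export it or oxidise it, in OP9 cells, stromal cells derived from mouse bone marrow that serve as a feeder layer for blood progenitors. A list of 34 genes was matched by symbol to the exon probe sets of an Affymetrix Mouse Exon 1.0 ST array, out of 22253 named genes on the array. Of the 34 genes, 32 were measured by at least 3 probe sets above the level of a middling probe set and were tested, among 16916 tested genes in all. Total RNA came from OP9 cells carrying a stably integrated pLKO.1-Puro lentivirus with either a scrambled hairpin (control shRNA, 3 arrays) or a hairpin against Smoothened (Smo shRNA, 3 arrays). All cells of both groups therefore carry the vector and were grown at sub-confluency. Smoothened, Smo, is the membrane protein through which Hedgehog ligands signal. Each group was taken to be 1 stable line with 3 RNA samples. Whether the 3 samples of a line trace back to different infections is not stated, nor is the number of hairpins or clones. The p-values therefore reflect only how far repeated RNA samples differed, which may be technical, and the hairpin cannot be told apart from any other difference between the lines.

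Cholesterol is built from acetyl units through mevalonate, squalene and lanosterol, and the last steps turn lanosterol into cholesterol. When membrane sterol runs low, the sensor Scap carries the transcription factor Srebf2 out of the endoplasmic reticulum, Insig proteins hold it back when sterol is plentiful, and the enzymes of synthesis usually rise or fall together under this control. When sterol is in excess, oxysterols activate the liver X receptors Nr1h2 and Nr1h3, which raise the exporters Abca1 and Abcg1. Sterols also touch the Hedgehog pathway directly, since Smo binds cholesterol and some oxysterols, the Hedgehog receptor Ptch1 is related to the sterol transporter Npc1, and loss of Dhcr7 weakens Hedgehog responses in cells.

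The promoter sequences below are shown because they belong to genes of synthesis (Hmgcs1, Lss, Dhcr7 and Hsd17b7), sensing (Insig1) and export (Abca1) that the results turn on, with calls in both directions and, for Hmgcs1, none. They are the 250 bases before a RefSeq transcription start (GRCm38.p6), read 5′ to 3′ on the gene's strand, and were found for 27 of the 34 genes. Fdps, Fdft1, Sqle, Npc1, Abcg1, Stard4 and Cyp7b1 had no entry. Capitals mark matches on either strand to a sterol regulatory element (TCACNCCAC, or its shorter core CACNCCAC, which lies inside it), an E-box (CACGTG) or a CCAAT box (CCAAT, or ATTGG on the other strand). For Dhcr7, which has 3 listed starts, the window with CCAAT boxes was chosen. The other Dhcr7 windows hold no CCAAT box, and the Dhcr7 E-box counted next lies in one of them.
Hmgcs1, chr13:119690101-119690350, plus strand: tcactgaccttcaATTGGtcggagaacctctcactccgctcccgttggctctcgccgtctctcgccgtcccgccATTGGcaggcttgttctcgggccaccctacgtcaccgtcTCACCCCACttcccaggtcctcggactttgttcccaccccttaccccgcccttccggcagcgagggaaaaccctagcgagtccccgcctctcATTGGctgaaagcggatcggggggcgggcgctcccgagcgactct
Insig1, chr5:28071162-28071411, plus strand: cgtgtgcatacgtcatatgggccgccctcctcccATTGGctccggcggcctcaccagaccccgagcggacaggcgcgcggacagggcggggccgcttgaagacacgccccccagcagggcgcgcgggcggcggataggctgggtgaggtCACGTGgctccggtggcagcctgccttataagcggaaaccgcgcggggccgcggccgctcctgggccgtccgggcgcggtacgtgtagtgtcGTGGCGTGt
Lss, chr10:76531355-76531604, plus strand: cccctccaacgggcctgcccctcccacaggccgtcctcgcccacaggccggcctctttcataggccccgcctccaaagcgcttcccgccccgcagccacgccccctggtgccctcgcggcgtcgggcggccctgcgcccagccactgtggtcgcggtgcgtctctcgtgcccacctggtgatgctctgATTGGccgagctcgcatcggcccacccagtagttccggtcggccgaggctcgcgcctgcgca
Dhcr7, chr7:143829964-143830213, plus strand: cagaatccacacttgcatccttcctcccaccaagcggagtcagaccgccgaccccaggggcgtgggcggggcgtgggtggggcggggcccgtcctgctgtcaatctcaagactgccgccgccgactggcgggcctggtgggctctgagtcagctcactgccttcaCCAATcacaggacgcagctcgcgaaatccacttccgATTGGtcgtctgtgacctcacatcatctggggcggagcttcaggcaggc
Hsd17b7, chr1:169969206-169969455, minus strand: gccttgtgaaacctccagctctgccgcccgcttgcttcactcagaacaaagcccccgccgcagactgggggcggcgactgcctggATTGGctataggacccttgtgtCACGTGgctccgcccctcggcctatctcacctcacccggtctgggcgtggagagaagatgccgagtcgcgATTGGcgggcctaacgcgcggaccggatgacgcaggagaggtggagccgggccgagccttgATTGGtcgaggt
Abca1, chr4:53159896-53160145, minus strand: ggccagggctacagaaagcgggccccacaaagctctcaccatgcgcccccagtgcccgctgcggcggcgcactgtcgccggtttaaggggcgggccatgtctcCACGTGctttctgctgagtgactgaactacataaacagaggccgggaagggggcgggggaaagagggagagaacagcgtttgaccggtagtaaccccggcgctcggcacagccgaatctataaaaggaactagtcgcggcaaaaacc
The full element TCACNCCAC was found for 1 of the 27 genes, Hmgcs1, and for 1.22% of the 27025 genes with a window. The core was found for 3 genes, Hmgcs1, Insig1 and Acat2, against 6.05% of all genes. E-boxes were found for 6 genes (22.2%), Abca1, Dhcr7, Hsd17b7, Insig1, Sc5d and Scap, against 6.86% of all genes. CCAAT boxes were found for 21 genes (77.8%), against 37.5% of all genes. The DR4 consensus repeat, a form that liver X receptors can bind, was searched for on both strands as an exact match. It was found for 0 of the 27 and 0.0148% of all genes. Exact matches are so rare that this 0 does not show such repeats to be absent. Forms with mismatches were not searched for and are not marked in the sequences. A match describes these letters only.

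The hairpin target was lower in its own arrays. Smo read 12.29, 12.22 and 12.24 on the log2 scale in the control arrays and 11.32, 11.36 and 11.44 in the Smo shRNA arrays, a difference of -0.88 (SE 0.04, limma adjusted p = 1.14e-09). Array medians lay between 6.56 and 6.59. Control replicate 2 was nevertheless the lowest control array, or tied for lowest, for Smo and for most tested sterol genes. The exceptions were Srebf2, Nr1h2, Cyp27a1 and Cyp7b1. In that array Tm7sf2 read 9.46, against 9.72 and 9.61 in the other control arrays, and Mvd 10.07, against 10.24 and 10.30. The cause was not tested. Of 8 mesenchymal stroma markers, all tested, 6 were lower (limma adjusted p under 0.05, as were 17.4% of all genes) and 0 higher in Smo shRNA cells, with summed linear levels of 38940 to 40050 in control and 30070 to 32310 in Smo shRNA arrays. Pdgfrb and Col1a1 read 13.26 and 12.84 in control cells, while Thy1 was near the level of a middling probe set at 7.27. Markers of other cells were read unevenly: among macrophage markers Ptprc kept 10 of 53 probe sets above that level and Cd68 10 of 10, among B cell markers Ms4a1 1 of 10 and Pax5 7 of 10, and among epithelial markers Krt8 15 of 20. None of the 3 B cell, 5 endothelial and 4 epithelial markers tested passed. Fewer cells of a type and less RNA per cell cannot be told apart in such bulk samples.

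Of the 32 tested sterol genes, 7 were higher in Smo shRNA cells, 10 were lower and 15 missed the threshold (adjusted p under 0.05, limma with Benjamini-Hochberg adjustment over all genes). Called genes made up 53.1% of the 32, against 38.6% of all tested genes, 21.2% of which were higher and 17.4% lower. The median size of the difference, without its sign, was 0.12 over the 32 genes and 0.11 over all genes, and the signed medians were -0.03 and 0.01. Abcg1 alone passed 1.5-fold, on the lower side, where 3.32% of all genes lay. The 3 and 3 arrays did not overlap for 21 of the 32 genes (65.6%), against 47.8% of all genes. Of the 17 calls, 12 kept their direction and their side of the threshold in all 15 alternative settings, 3 higher (Dhcr7, Lss and Npc1) and 9 lower (Abca1, Abcg1, Nr1h2, Nr1h3, Fdft1, Sqle, Hsd17b7, Insig1 and Soat1). The higher calls depended more on single arrays, with 3 to 4 higher and 9 to 11 lower when 1 array was left out. Centring each array on its median gave 5 higher and 13 lower.

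**Figure D1:**
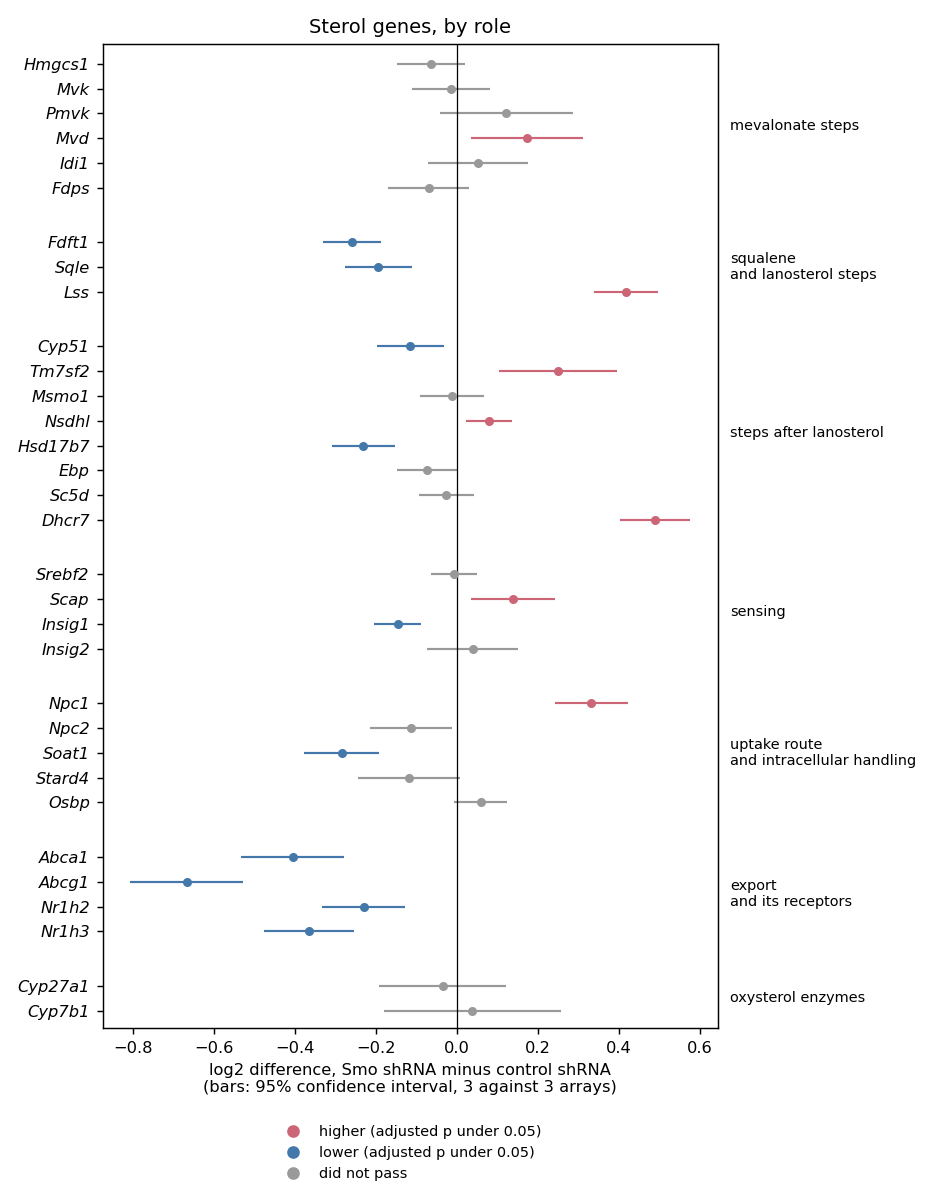
Log2 differences (Smo shRNA minus control shRNA) of the 32 tested sterol genes on the horizontal axis, with 95% confidence intervals, grouped by role. The 4 genes of export and its receptors lie together on the lower side, from -0.67 to -0.23. The enzymes after farnesyl diphosphate spread from -0.26 (Fdft1) to 0.49 (Dhcr7).

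The first part of the pathway, from acetyl units to farnesyl diphosphate, moved little. Only 1 of the 6 tested mevalonate genes was called (16.7%, against 38.6% of all genes), on the higher side, and their median difference was 0.02. Hmgcs1, which makes HMG-CoA, differed by -0.06 (95% interval -0.15 to 0.02), and mevalonate kinase, Mvk, by -0.01 (-0.11 to 0.08). Idi1, which isomerises isopentenyl diphosphate, differed by 0.05 (-0.07 to 0.17) and Fdps, which makes farnesyl diphosphate, by -0.07 (-0.17 to 0.03). Phosphomevalonate kinase, Pmvk, differed by 0.12 (-0.04 to 0.29). These intervals leave room for changes of up to 0.29 on the log2 scale, so they do not show equal levels.

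Mvd, mevalonate diphosphate decarboxylase, was the one mevalonate gene that passed. It read 10.24, 10.07 and 10.30 in the control arrays and 10.32, 10.35 and 10.46 in the Smo shRNA arrays, a difference of 0.17 (SE 0.06, limma adjusted p = 0.0475). The highest control array and the lowest Smo shRNA array were nearly level, with no overlap. The call was lost in every fit without 1 array, with differences from 0.08 (without control replicate 2) to 0.21 (without control replicate 3). The annotation gave no probe set to Acat2, the thiolase at the head of the pathway, so it has no value here.

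The 3 genes between farnesyl diphosphate and lanosterol were all called, against 38.6% of all genes, with the first and second enzymes lower and the last one higher. Fdft1, squalene synthase, read 12.87, 12.82 and 12.82 in control arrays and 12.61, 12.62 and 12.51 in Smo shRNA arrays, and fell by 0.26 (SE 0.03, limma adjusted p = 2.29e-05). Sqle, squalene epoxidase, a rate-setting enzyme of the pathway, read 12.59, 12.56 and 12.65 and then 12.32, 12.43 and 12.47, and fell by 0.19 (SE 0.04, limma adjusted p = 0.00105). Every Smo shRNA array lay below every control array for both genes, where 47.8% of all genes had no overlap in either direction. Lss, which closes squalene epoxide into lanosterol, read 11.56, 11.48 and 11.58 in control arrays and 11.98, 11.96 and 11.93 in Smo shRNA arrays. It was 1.34-fold higher (log2 difference 0.42, SE 0.04, limma adjusted p = 7.97e-07), with all Smo shRNA arrays above all control arrays. The interval of Lss (0.34 to 0.50) lay wholly above 0 and those of Fdft1 (-0.33 to -0.19) and Sqle (-0.28 to -0.11) wholly below it.

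The 8 enzymes after lanosterol were split, with 3 higher, 2 lower and 3 not called, and a median difference of -0.02. Called genes made up 62.5% of the 8, against 38.6% of all genes (21.2% higher and 17.4% lower). Dhcr7, which turns 7-dehydrocholesterol into cholesterol in the last step of one branch, had the largest rise of all 32 genes. It read 11.47, 11.37 and 11.46 in control arrays and 11.89, 11.98 and 11.90 in Smo shRNA arrays, or 1.40-fold higher (log2 difference 0.49, SE 0.04, limma adjusted p = 4.11e-07). The groups lay far apart beside the spread within them, an SD of 0.05 in each (n = 3).

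Hsd17b7, a ketosteroid reductase of C4 demethylation, moved the other way. It read 11.82, 11.75 and 11.80 in control arrays and 11.58, 11.53 and 11.57 in Smo shRNA arrays, and fell by 0.23 (SE 0.04, limma adjusted p = 0.000154). Its partners in the same demethylation differed less. Nsdhl, the decarboxylating dehydrogenase, was 0.08 higher (SE 0.03, limma adjusted p = 0.0288), and Msmo1, the methyl oxidase, listed on the array under its older symbol Sc4mol, differed by -0.01 (-0.09 to 0.07).

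Tm7sf2, a sterol C14 reductase, read 9.72, 9.46 and 9.61 in control arrays and 9.84, 9.90 and 9.80 in Smo shRNA arrays, a difference of 0.25 (SE 0.07, limma adjusted p = 0.00875). Cyp51, lanosterol demethylase, read 12.02, 11.97 and 12.03 and then 11.85, 11.96 and 11.86, a difference of -0.11 (SE 0.04, limma adjusted p = 0.0277). Its second Smo shRNA array almost reached the lowest control array. Ebp, a sterol isomerase, differed by -0.07 (limma adjusted p = 0.12) and Sc5d, a desaturase, by -0.03 (-0.09 to 0.04). The calls of Tm7sf2, Cyp51 and Nsdhl were each lost in 5 of the 6 fits without 1 array. The Tm7sf2 difference was 0.12 without control replicate 2, the Cyp51 difference -0.09 without Smo shRNA replicate 1 or 3, and the Nsdhl difference 0.07 without Smo shRNA replicate 3. The call was kept for Tm7sf2 without control replicate 1, for Cyp51 without Smo shRNA replicate 2 and for Nsdhl without Smo shRNA replicate 1.

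Taking synthesis as a whole, 5 of 17 tested enzymes were higher, 4 lower and 8 not called (52.9% called, against 38.6% of all genes, 21.2% higher and 17.4% lower), with a median difference of -0.01. The higher count was 2 to 3 without 1 array. Genes of cycling cells rose in the same arrays: 9 of 10 tested (Mcm2 to Mcm7, Cdt1, Pcna and Uhrf1) were higher and 0 lower. The summed level of these 10 genes, on the linear scale, ran from 38910 to 39600 in control arrays and from 51590 to 52400 in Smo shRNA arrays. Their part in the sterol gene differences was not tested.

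**Figure D2:**
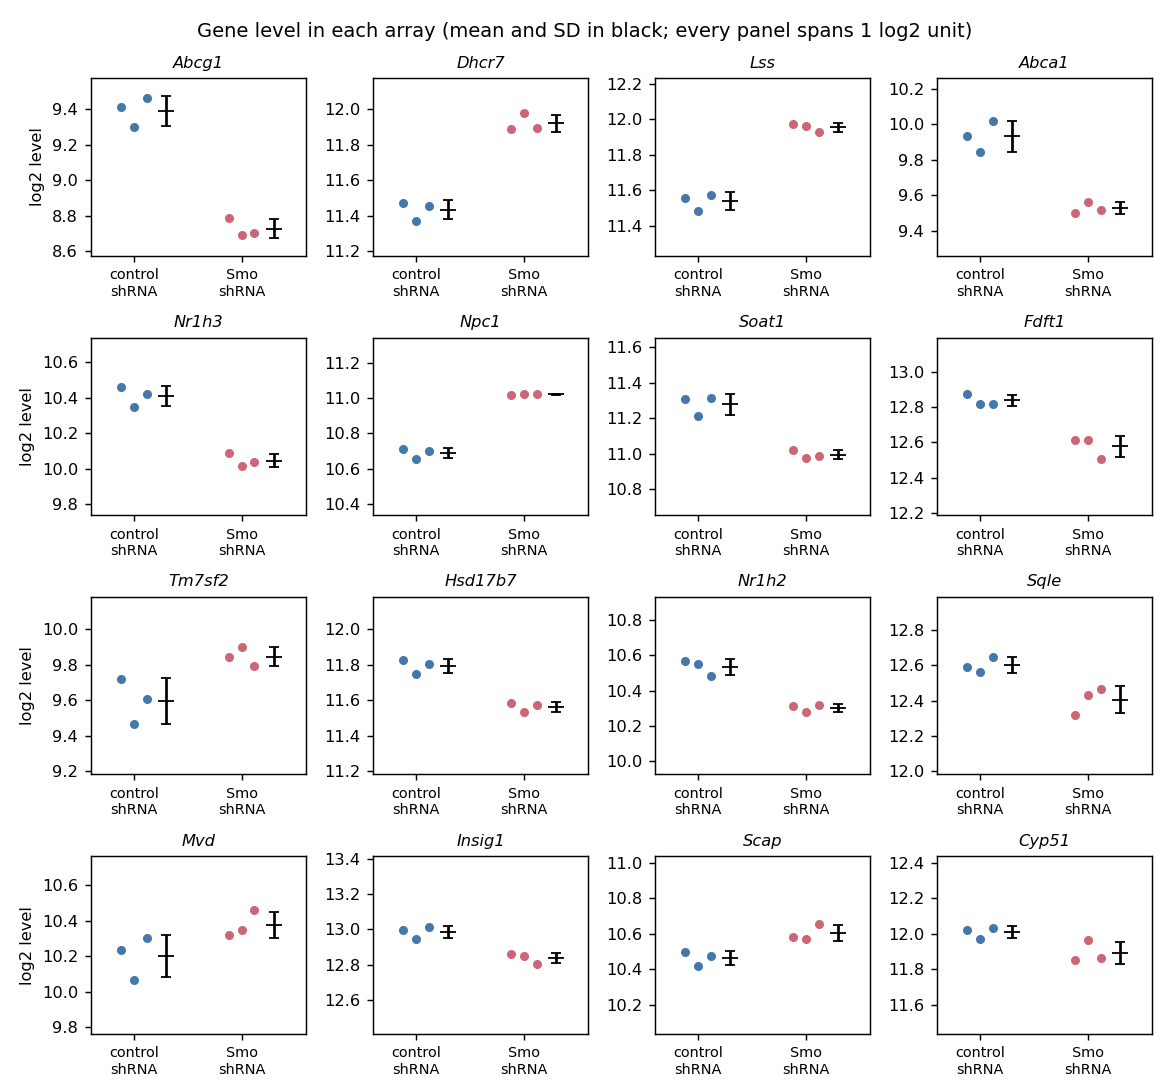
Log2 level of the 16 called sterol genes with the largest differences, in each of 3 control shRNA (blue) and 3 Smo shRNA (red) arrays, with the mean and SD in black and every vertical axis spanning 1 log2 unit. The arrays of the groups are well apart for Abcg1, Dhcr7 and Lss and nearly touch for Mvd and Cyp51.

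Among the genes that sense sterol, 1 rose, 1 fell and 2 missed the threshold. Called genes made up 50% of these 4, against 38.6% of all genes (21.2% higher and 17.4% lower). Srebf2 itself differed by -0.01 (-0.06 to 0.05), an interval resting on 83 probe sets and the narrowest of the 32 genes. Insig1, the retention protein that Srebf2 itself induces, read 13.00, 12.95 and 13.01 in control arrays and 12.86, 12.85 and 12.80 in Smo shRNA arrays. It fell by 0.15 (SE 0.03, limma adjusted p = 0.000612), a small change with no overlap between the groups. Insig2, the second retention protein, differed by 0.04 (-0.07 to 0.15). Scap, the escort of Srebf2, read 10.50, 10.42 and 10.47 in control arrays and 10.58, 10.57 and 10.65 in Smo shRNA arrays, a difference of 0.14 (SE 0.05, limma adjusted p = 0.0336). The Scap call was lost in every fit without 1 array (0.11 to 0.15) and with each array centred on its median (0.10, adjusted p = 0.0532).

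Among genes of the uptake route and of handling inside the cell, Npc1 rose, Soat1 fell and 3 did not pass. Called genes made up 40% of these 5, close to the 38.6% of all genes. Npc1, which moves cholesterol out of late endosomes and lysosomes, read 10.71, 10.66 and 10.70 in control arrays and 11.02 in each Smo shRNA array. It was 1.26-fold higher (log2 difference 0.33, SE 0.04, limma adjusted p = 2e-05). Npc2, the soluble protein that hands cholesterol to Npc1, differed by -0.11 (-0.21 to -0.01) and missed the threshold (limma adjusted p = 0.0728). The Npc2 call was made in 3 settings: without control replicate 2, with the mean of probe sets and with each array centred on its median (adjusted p = 0.0184, 0.043 and 0.00453). The Npc1 to Npc2 pair therefore gives values on opposite sides of 0, of which the one for Npc1 passed.

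Soat1, which esterifies cholesterol for storage in lipid droplets, read 11.31, 11.21 and 11.31 in control arrays and 11.02, 10.98 and 10.98 in Smo shRNA arrays. It fell by 0.28 (SE 0.04, limma adjusted p = 0.000108), with no overlap. Stard4, a cytosolic carrier of cholesterol, differed by -0.12 (-0.24 to 0.01), and Osbp, which exchanges sterol for a phosphoinositide at membrane contacts, by 0.06 (-0.01 to 0.12).

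Export with its receptors, as listed here, was the one role in which every gene moved the same way. Its 4 genes are the exporters Abca1 and Abcg1 and the liver X receptors Nr1h2 and Nr1h3. All 4 fell, against 17.4% of all tested genes, with a median difference of -0.38. The shared direction depends on which genes were listed. Abca7 and Abcg4, relatives of these exporters in the second list below, differed by -0.09 and 0.06 and did not pass (limma adjusted p = 0.263 and 0.571). In that list Rxra and Pltp fell, Rxrb did not pass and Scarb1 rose. Abcg1, which passes cholesterol on to lipoprotein particles, read 9.41, 9.30 and 9.46 in control arrays and 8.79, 8.69 and 8.70 in Smo shRNA arrays. It was 1.59-fold lower (log2 difference -0.67, SE 0.06, limma adjusted p = 1.89e-06). Abca1, which loads cholesterol onto lipid-poor apolipoprotein, read 9.93, 9.85 and 10.02 in control arrays and 9.50, 9.56 and 9.52 in Smo shRNA arrays. It was 1.32-fold lower (log2 difference -0.41, SE 0.06, limma adjusted p = 7.58e-05).

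The receptors that raise both exporters were lower as well. Nr1h3, liver X receptor alpha, read 10.46, 10.35 and 10.42 in control arrays and 10.09, 10.01 and 10.04 in Smo shRNA arrays, and fell by 0.36 (SE 0.05, limma adjusted p = 5.88e-05). Nr1h2, liver X receptor beta, read 10.56, 10.55 and 10.48 and then 10.32, 10.28 and 10.32, and fell by 0.23 (SE 0.05, limma adjusted p = 0.0014). For all 4 genes every Smo shRNA array lay below every control array. The groups also did not overlap, in either direction, for 47.8% of all genes. The difference between export and the other roles was not tested.

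Markers of adipocytes and of macrophages, cells in which these exporters and Nr1h3 are prominent, were read in the same arrays. Of 7 adipocyte markers, 5 fell (as did 17.4% of all genes), 1 rose (Pparg, by 0.12) and 1 did not pass. Their summed level on the linear scale was 16900 to 17490 in control arrays and 11470 to 12020 in Smo shRNA arrays, and their part in the export result was not tested. Of 10 macrophage markers, 0 fell and 1 rose, Cd68, a lysosomal protein not limited to macrophages. Their summed level was 2278 to 2426 in control arrays and 2463 to 2584 in Smo shRNA arrays, and its part in the export result was not tested. That sum includes Cd68, which read 8.54 in control and 9.01 in Smo shRNA cells. The other 9 macrophage markers did not pass, and 0 of the 10 averaged above 9 over all arrays.

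Oxysterol enzymes gave little signal. Cyp27a1, which makes 27-hydroxycholesterol in mitochondria, read 7.65, 7.65 and 7.56 in control arrays and 7.59, 7.55 and 7.60 in Smo shRNA arrays, a difference of -0.03 (-0.19 to 0.12). Cyp7b1, which further hydroxylates oxysterols, kept 3 of its 12 probe sets and read 7.33, 7.61 and 7.53 and then 7.62, 7.64 and 7.33, a difference of 0.04 (-0.18 to 0.26). The groups overlapped for both genes. Ch25h, the 25-hydroxylase, had 3 probe sets with mean levels of 5.54, 6.25 and 6.54, all under the median probe set at 6.56, and was not tested. The low readings of these 3 enzymes, and the wide intervals of the 2 tested, limit what can be said of them.

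Single probe sets, each covering an exon or part of one, showed how uniform these changes were along a gene. Of 635 kept probe sets of the sterol genes, 93 were higher and 165 lower at the threshold (limma, adjusted over 245574 probe sets, of which 30% were called, 17.5% higher and 12.4% lower). Probe sets of a gene share its RNA and are not replicates. For Abca1, 57 of 77 probe sets were lower and 0 higher, and for Fdft1 14 of 16 were lower and 0 higher. For Dhcr7, 14 of 15 were higher, for Lss 22 of 25 and for Npc1 25 of 33, with 0 lower in each. For Sqle and for Hsd17b7, 11 of 15 were lower and none had a positive difference. Most probe sets of the genes just named thus shared the direction of the gene. Fewer passed for some other called genes. For Cyp51, 1 of 16 probe sets was lower, and for Nsdhl and Mvd 2 of 11 and 4 of 13 were higher. For Tm7sf2 and Scap, 7 of 18 and 12 of 32 were higher. The share called over all probe sets was 30%.

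Abcg1 had the widest range of probe set differences among the called genes. Its 22 probe set differences ran from -1.72 to 0.06, with 17 lower at the threshold. The probe set with the largest fall read 10.65, 10.47 and 10.68 in control arrays and 8.96, 8.95 and 8.72 in Smo shRNA arrays. Another, with the highest readings of the gene, read 13.01, 13.08 and 13.00 and then 13.04, 12.98 and 12.95, a difference of -0.04 that did not pass. The size of the Abcg1 change therefore depends on the probe sets used.

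In several genes a few probe sets departed from the rest. Srebf2 had 42 probe sets with positive and 41 with negative differences. Of its 83, 5 were lower and 1 higher at the threshold, where 12.4% and 17.5% of all probe sets were. The extreme was -0.88 at a mean level of 6.90. Soat1 had 19 lower probe sets and 1 higher, by 0.47. Mvk had 1 lower probe set, by 0.45 on the log2 scale, among 15 whose median difference was -0.03. Such probe sets were named after their values were seen, and exon usage was not tested.

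**Figure D3:**
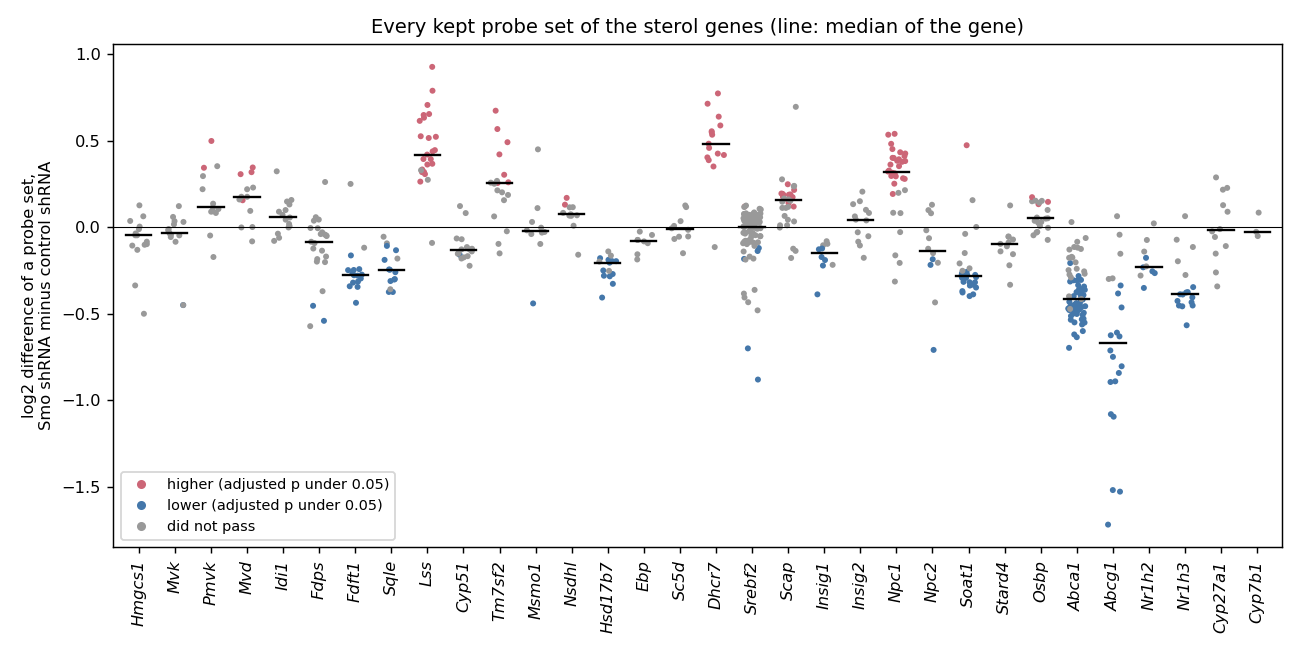
Log2 difference (Smo shRNA minus control shRNA, vertical axis) of every kept probe set, by gene, coloured by its own call, with the median of the gene as a line. Abca1, Dhcr7 and Lss shift as a block, Abcg1 spreads down to -1.72, and Srebf2 centres on 0.00.

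A second list of 53 genes, for the supply of acetyl units, lipoprotein uptake, Srebf2 processing, sterol carriers, lipid export and oxysterol breakdown, gave a wider frame. Of 47 tested, 15 were higher, 13 lower and 19 not called, so 59.6% were called against 38.6% of all genes, with a median difference of -0.02. Differences in this list were larger than among the 32 genes, with 3 genes at least 1.5-fold higher and 2 at least 1.5-fold lower (2.71% and 3.32% of all genes). The genes named next are the 6 with the smallest adjusted p.

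Lbr, a nuclear envelope protein that is also a sterol C14 reductase like Tm7sf2, read 10.18, 9.99 and 10.14 in control arrays and 11.07, 11.11 and 11.11 in Smo shRNA arrays. It was 1.99-fold higher (log2 difference 0.99, SE 0.05, limma adjusted p = 7.18e-09). Nceh1, a hydrolase of cholesteryl esters, was 1.92-fold higher (9.21 ± 0.06 to 10.15 ± 0.01, SD, n = 3, limma adjusted p = 1.5e-08). Soat2, a second esterifying enzyme beside Soat1, differed by 0.03 (limma adjusted p = 0.871). Cav1, caveolin 1, a cholesterol-binding coat protein of caveolae, was 1.75-fold higher (10.50 ± 0.04 to 11.30 ± 0.09, SD, n = 3, limma adjusted p = 3.38e-08). Erlin1, a sterol-regulated protein of the endoplasmic reticulum, was 1.46-fold higher (10.89 ± 0.02 to 11.44 ± 0.04, SD, n = 3, limma adjusted p = 1.45e-07).

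Cyp39a1, the 24-hydroxycholesterol 7-alpha-hydroxylase, fell the most of this list. It read 11.79, 11.71 and 11.82 in control arrays and 10.83, 10.79 and 10.76 in Smo shRNA arrays, 1.97-fold lower (log2 difference -0.98, SE 0.04, limma adjusted p = 9.99e-10). It was read by 16 probe sets. Hsd3b7, a dehydrogenase that acts on hydroxylated sterols, named after its values were seen, fell by 0.37 (limma adjusted p = 0.000325). Mylip, a ubiquitin ligase for lipoprotein receptors and a target of the liver X receptors, read 11.75, 11.67 and 11.79 in control arrays and 10.94, 10.89 and 10.97 in Smo shRNA arrays. It was 1.74-fold lower (log2 difference -0.80, SE 0.04, limma adjusted p = 6.44e-09).

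Other genes tied to the liver X receptors were looked up after the values were seen. Their partner Rxra fell by 0.30 (limma adjusted p = 1.23e-05), and their target Pltp, a phospholipid transfer protein, by 0.22 (limma adjusted p = 0.000427). Another target, Lpcat3, an acyltransferase of phospholipids, was 0.10 higher (limma adjusted p = 0.00298), and the partner Rxrb differed by -0.10 (-0.24 to 0.04). Of the genes named here as targets, Abca1, Abcg1, Mylip and Pltp were thus lower, as were 17.4% of all genes. Lpcat3 alone was higher, by 0.10. The activity of the receptors was not tested.

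Lipa, the lysosomal lipase that frees cholesterol upstream of Npc2 and Npc1, fell by 0.44 (limma adjusted p = 6.58e-07), and the lipoprotein receptors Scarb1 and Lrp1 rose by 0.36 and 0.21. These were likewise named after their values were seen. Vldlr, another lipoprotein receptor of the list, differed by -0.13 (limma adjusted p = 0.267).

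**Figure D4:**
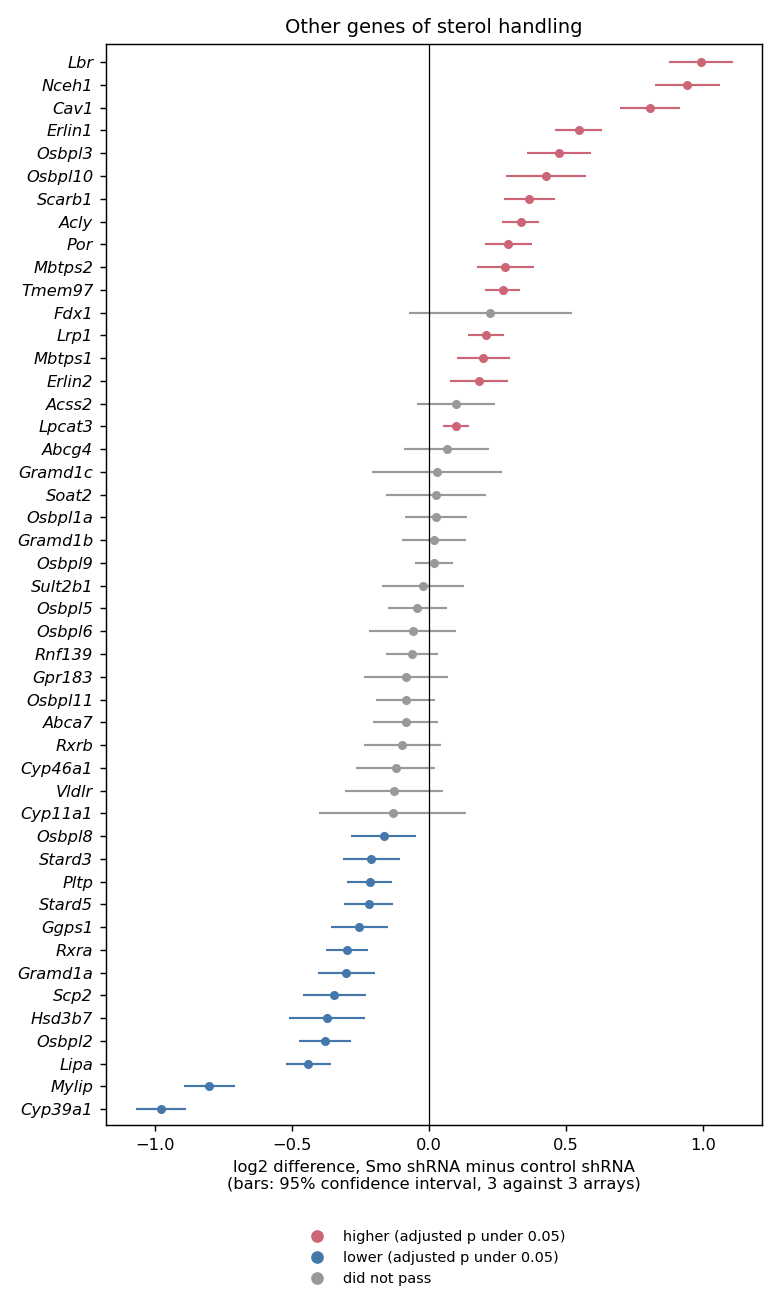
Log2 differences (Smo shRNA minus control shRNA, horizontal axis) of the 47 tested genes of the second list, with 95% confidence intervals, ordered by size. Lbr, Nceh1 and Cav1 stand at the higher end (0.99, 0.94 and 0.81) and Cyp39a1 and Mylip at the lower end (-0.98 and -0.80).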

How the data were processed

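The deposited table holds log2 values of 1256831 exon probe sets on 6 arrays, summarised and normalized by the authors by a method the available sources do not name. The log2 scale was read from the values. The 20744 probe sets at 0 on every array were not used for any gene. Names came from the platform annotation (318760 probe sets with 1 symbol), updated through the RefSeq table of GRCm38.p6. Probe sets with several symbols were left out, and cross-hybridization was not assessed.

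A named probe set entered if its 6-array mean reached 6.56, the midpoint of all probe sets (245574 did). Genes with at least 3 were joined by Tukey median polish and compared with limma 3.58.1 in R 4.3.3 (lmFit, eBayes with a variance trend, two-sided, Benjamini-Hochberg over all genes, threshold 0.05). Differences are Smo shRNA minus control shRNA, and intervals are limma's, at 95%. Folds from hybridization understate changes of dim genes, and the number of arrays limits the precision. The calculation was tested on simulated data.

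The members, lists and tests were chosen with earlier results of these data known. The naming rule takes all 34 members, with values by array for the 16 called members with the largest differences and for the oxysterol enzymes, Smo, and the 6 genes of the second list with the smallest adjusted p.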

Additional observations from a re-analysis of the deposited data

How the results depend on the processing

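All 15 alternatives kept the direction of every called sterol gene. The number of sterol genes called higher was 7, but 4 with the mean of probe sets and 4 without a variance trend, and 3 to 4 without 1 array. For the synthesis enzymes it was 5, but 3 with the mean of probe sets, 3 without a variance trend, and 2 to 3 without 1 array. The genes lost were among Mvd, Scap, Tm7sf2 and Nsdhl. The cause was not tested. On the lower side, counts ran from 9 to 13 sterol genes. Centring each array on its median moved the median of all genes from 0.01 to -0.03 and added Ebp, Npc2 and Stard4 to the lower calls (differences -0.11, -0.15 and -0.15). With the replicate number as a block, 7 sterol genes were higher and 10 lower, and 6945 genes were called in all, against 6538. Same-numbered arrays shared deviations weakly (correlations 0.08, 0.10 and 0.39), so the numbers were not taken to pair the samples. Signal over background limits Ch25h, Cyp7b1 and Cyp27a1.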
